A study of Homo sapiens with 16 samples.

Results

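Nuclear-encoded respiratory chain genes are the genes of the nucleus whose proteins build complexes I to IV of the mitochondrial respiratory chain and the ATP synthase (complex V), together with the assembly factors that put them together. They were taken by symbol: all symbols that start with NDUF, UQCR, UQCC or ATP5, or with COX and a digit, and the SDH subunits and SDH assembly factors. The deposited transcripts carry no gene name usable here, so genes were named by matching the coding lengths of neighbouring transcripts to annotated genes, and the transcript with the most counts stood for its gene. Of 115 such symbols in the annotation 55 could be named, among 10930 named genes in all, and the other 60 are not analysed here. The 55 comprised 22 of 38 symbols of complex I, 4 of 4 of complex II, 3 of 9 of complex III, 5 of 19 of complex IV, 10 of 21 of complex V and 11 of 24 assembly factors. Of these, 54 passed the filter on low counts with treatment. COX7B2, with 182 counts over 16 libraries, did not.

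The data are ribosome footprints, the mRNA fragments that ribosomes shield from RNase I, from 4 established human cancer cell lines. NCI-H1650 and NCI-H520 are lung lines and Hs 936.T and A375 are melanoma lines, all labelled as WT. Each line was exposed for 30 min to the solvent DMSO (2 libraries) or to rocaglamide A (RocA), a plant compound that inhibits translation by clamping the helicase eIF4A onto mRNA, at 0.3 µM (1 library) or 3 µM (1 library). The series title asks about the compound's dual action on DDX3 and eIF4A, and the 16 libraries compare both doses with DMSO in every line. Lines served as the replicates of a dose (n = 4), a single line and dose has no replicate check, and nothing in the labels says that libraries came from separate cultures, so p-values measure only the spread between these samples.

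Complexes I and II pass electrons from NADH and succinate to ubiquinone, complex III passes them on to cytochrome c and complex IV to oxygen, while complexes I, III and IV pump protons that drive the ATP synthase. Subunits of a complex are present in fixed ratios in the finished enzyme, and most are made in the cytosol and imported into mitochondria. A few core subunits are encoded in mitochondrial DNA and read by mitochondrial ribosomes; those genes are not analysed here.

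Depth and identity of the libraries limit what follows. Footprints on named genes totalled 643183 to 3645648 per DMSO library and 56487 to 668763 per RocA library. CPM is the count scaled by the library total on the 6759 genes tested with treatment, after TMM adjustment. On that scale 1 count was worth 0.261 to 1.49 CPM with DMSO and up to 15 CPM in NCI-H1650 at 3 µM. Scaling was within libraries, so a change says how a gene moved against the rest of its library, and less footprint per cell cannot be told apart from fewer cells. DMSO replicate 2 and the 3 µM library of NCI-H520 carry that name in their titles but NCI-H521 in their cell-line label. Melanocyte genes (8 of 10 markers named) summed to 26821 to 48554 CPM in Hs 936.T and 579.7 to 768 CPM in A375. In NCI-H520 they summed to 954 and 2388 CPM in the DMSO libraries, 255 CPM at 0.3 µM and 629 CPM at 3 µM, against 123 to 194.8 CPM in NCI-H1650. Squamous markers (3 of 7 named) summed to 4.11 CPM or less in every NCI-H520 library and to 15 to 168 CPM in NCI-H1650. Epithelial markers summed to 6110 to 24795 CPM in the lung lines and 23.5 to 734 CPM in the melanoma lines. The part of these markers in the results below was not tested; member counts without NCI-H520 are given beside the main ones.

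With RocA the respiratory chain genes took a larger share of the footprints in every line. Under DMSO they held 1.63% of the footprints on named genes in A375, 1.77% in NCI-H1650, 2.02% in NCI-H520 and 2.07% in Hs 936.T (means of 2 libraries). At 0.3 µM the shares were 2.53%, 2.75%, 3.08% and 2.88% in the same order, and at 3 µM they were 2.39%, 2.53%, 3.02% and 3.19%. All 8 treated libraries lay above the DMSO libraries of their line. Shares are sums of counts without NDUFC2-KCTD14, which shares its reads with NDUFC2, so the most read members weigh most. The ratio to DMSO was 1.505 ± 0.076 at 0.3 µM and 1.48 ± 0.048 at 3 µM (SD, n = 4 lines). Complex IV gained most by this measure at 0.3 µM, from 1.56-fold in Hs 936.T to 2.01-fold in NCI-H1650. Complex II gained least among the complexes in NCI-H520, at 1.07-fold, and assembly factors ranged from 1.15-fold to 1.37-fold at that dose.

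**Figure D1:**
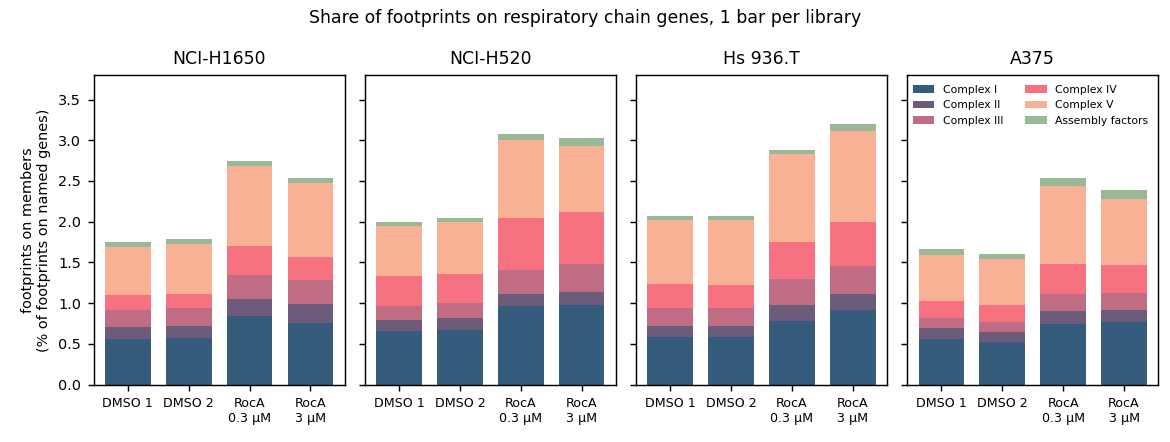
Share of footprints on respiratory chain genes (percent of footprints on all named genes, vertical axis) in each library, 1 panel per line and 1 bar per library, stacked by complex. In all 4 lines both RocA bars stand above both DMSO bars, with A375 rising from 1.63% to 2.53% at 0.3 µM.

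Gene by gene, 31 of 54 members rose and 11 fell at 0.3 µM (edgeR quasi-likelihood test, Benjamini-Hochberg adjusted p under 0.05 over 6759 genes), where 24.3% of all genes tested rose and 36.1% fell. At 3 µM 26 rose and 10 fell, against 22.4% and 34.2% of all genes. The median log2 change of the members was 0.51 at 0.3 µM and 0.46 at 3 µM, and that of all genes tested was -0.18 and -0.24. The doses share the DMSO libraries, so they are 2 readings of 1 set of controls. In each of the 4 lines the treated library lay above both DMSO libraries for 29 members at 0.3 µM (18.9% of all genes) and below both for 11 (30.2% of all genes). At 3 µM these counts were 24 (16.5% of all genes) and 8 (30.2% of all genes). Without NCI-H520, 30 members rose and 9 fell at 0.3 µM and 26 rose and 11 fell at 3 µM. Over the 6867 genes then tested, 1558 rose and 2255 fell at 0.3 µM, and 1303 rose and 2136 fell at 3 µM. With all libraries of a line thinned to equal depth, 34 members rose and 7 fell of 51 at 0.3 µM, and 31 rose and 6 fell at 3 µM. Thinning left 5282 genes tested in place of 6759. Of these 1460 rose and 1471 fell at 0.3 µM, in place of 1641 and 2441, and 1482 rose and 1553 fell at 3 µM, in place of 1512 and 2311.

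By class at 0.3 µM, 14 subunits of complex I rose and 6 fell of 22, 2 rose and 1 fell of 4 in complex II, 2 of 3 rose in complex III, 4 of 4 rose in complex IV, 5 rose and 2 fell of 10 in complex V, and 4 assembly factors rose and 2 fell of 11. At 3 µM the counts were 12 and 5, 2 and 1, 1 and 0, 3 and 0, 4 and 2, and 4 and 2 in the same order. Each multi-subunit class other than III and IV therefore held members called in opposite directions.

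**Figure D2:**
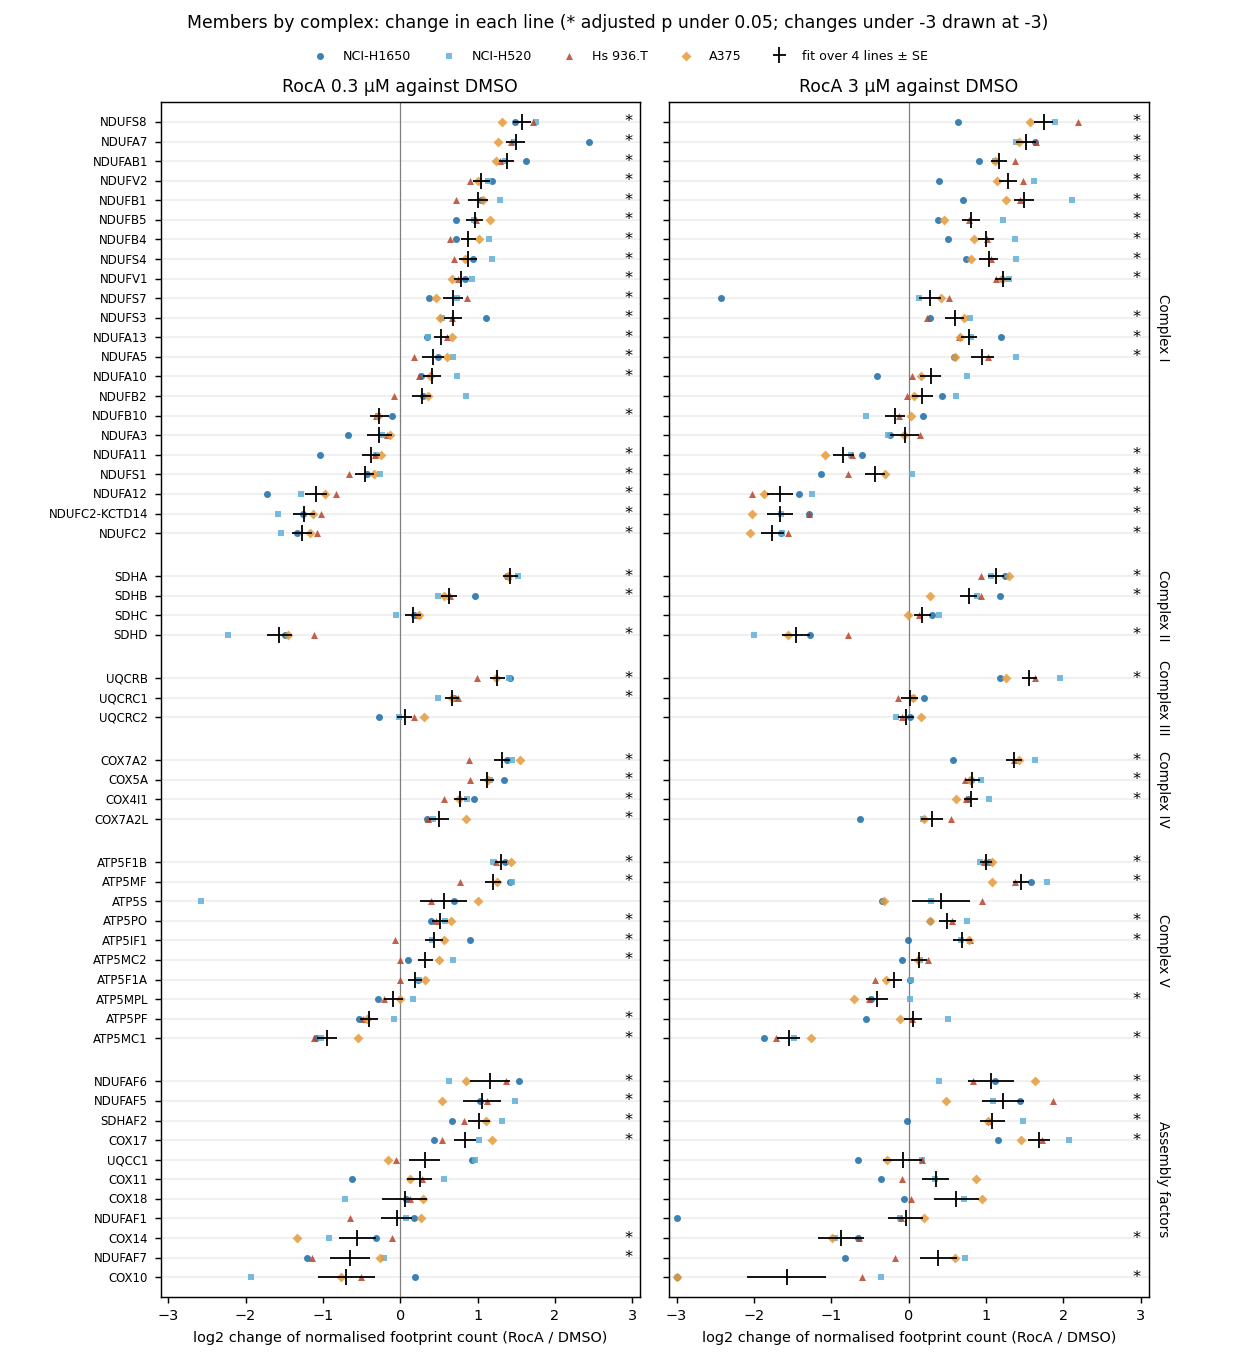
Log2 change of normalised footprint count against the mean of the DMSO libraries of the same line (horizontal axis) for each of 54 members (vertical axis, by complex) at 0.3 µM (left) and 3 µM (right). Coloured points are the 4 lines, black bars the fit over lines with its SE, and stars mark adjusted p under 0.05. SDHA (1.42) and SDHD (-1.56) stand on opposite sides at 0.3 µM, and the 4 complex IV subunits all lie to the right.

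The start regions of the messages were described next, since RocA is known to clamp eIF4A on purine-rich stretches ahead of the start codon. An annotated transcript of the counted length was found for all 54 members tested and for 6717 of 6759 genes. The 5′ untranslated region (5′ UTR) had a median of 110.5 bases in the members and 173 bases in all genes tested. The longest run of purines (A or G) within it had a median of 7 bases in the members and 8 in all genes. Over all genes tested, those that rose at 0.3 µM had a median 5′ UTR of 100 bases and those that fell 246 bases. Among the members the medians were 105 bases for the 31 that rose and 90 bases for the 11 that fell. Spearman's rho between 5′ UTR length and log2 change at 0.3 µM was -0.11 over the 54 members and -0.38 over 6717 genes (points are genes from the same libraries, which are not independent). For the longest purine run it was -0.12 and -0.37. Genes with no annotated 5′ UTR, such as ATP5MC2, entered these medians and rho values with a length and run of 0. An annotated 5′ UTR was present in 53 members and in 6586 of all genes tested. A stretch of 6 alternating A and G (AGAGAG or GAGAGA, sense strand, anywhere in the 5′ UTR) was present in 6 of 54 members, or 11.1%, and in 12.7% of all genes. It was in 3 of the 31 members that rose, 9.68%, and in 0 of the 11 that fell. Over all genes tested it was in 6.02% of those that rose and 18.3% of those that fell.

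**Figure D3:**
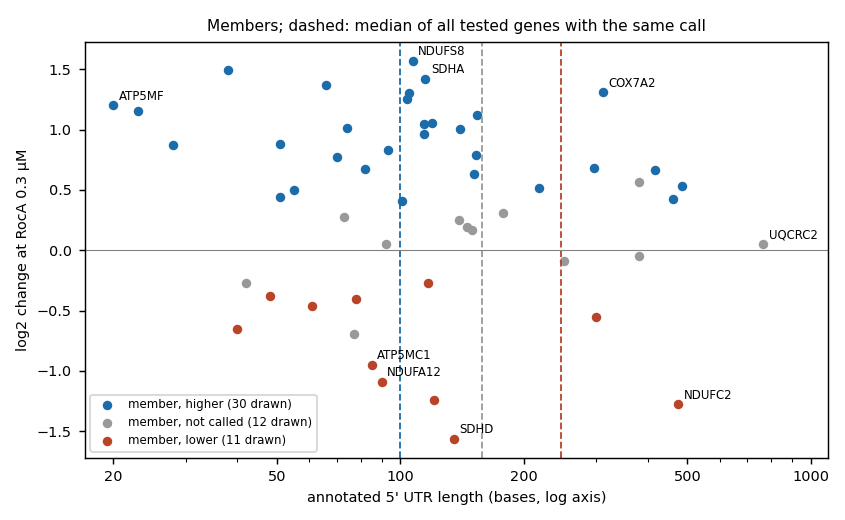
Annotated 5′ UTR length (bases, log axis) against log2 change at 0.3 µM for the members, coloured by call; ATP5MC2, with no annotated 5′ UTR in its matched transcript, is not drawn. Dashed lines are the medians of all genes tested with the same call, 100 bases for rises and 246 for falls, and 9 of the 11 members that fell lie left of the latter.

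Some of the longest purine runs, in members of both directions, are printed from the annotated transcripts (GENCODE 29, GRCh38, given 5′ to 3′ on the strand of the gene, with the run in capitals). NDUFC2, which fell, holds a run of 17 bases, the longest among the members, at chr11:78079827-78079855 (minus strand). NDUFS8 and NDUFB1 both rose, and hold 13 bases at chr11:68030627-68030647 (plus strand) and 14 bases at chr14:92121806-92121831 (minus strand). The counted entries of NDUFB1, COX7A2, ATP5PF and ATP5MC2 are longer isoforms, and their start regions here are those of these isoforms. Whether the messages read carry those start regions was not tested.
NDUFC2: gcgcgcAGAGGAGGAGGAGAAAGctgacc
NDUFS8: acAGAAAAGGGGGAAcccgct
NDUFB1: gaagctAAAAAAAAAAAAAAtgagag

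A second feature was the TISU core, letters that run across the start codon of some short-leader messages, searched on the sense strand at the start codon only and spelled by the capitals below. It was present in 3 of 54 members, 5.56%, and in 95 of 6717 genes, 1.41%. The 3 were SDHB at chr1:17054002-17054031 (minus strand), UQCRC1 at chr3:48609603-48609632 (minus strand) and NDUFS4 at chr5:53560651-53560680 (plus strand), printed because they share the core. All 3 rose at 0.3 µM, as did 60 of the 95 genes with the core, while 13 of the 95 fell. At 3 µM SDHB and NDUFS4 rose and UQCRC1 was not called. The annotated 5′ UTR had 28 bases in NDUFS4, but 151 in SDHB and 417 in UQCRC1, both above the member median of 110.5.
SDHB: tcaggagccAAGATGGCGGCggtggtcgcc
UQCRC1: tgcagctggAAGATGGCGGCgtccgtggtc
NDUFS4: gcctgcagcAAGATGGCGGCggtgtcaatg

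Complex I, with 22 members tested, held large changes in both directions. NDUFS8, an iron-sulfur subunit of the arm that hands electrons to ubiquinone (GRCh38 chromosome 11, coding region 68030907 to 68036593), had 113, 189.9 and 299 CPM as lowest, median and highest of the 8 DMSO libraries. It had 513, 963, 388 and 522 CPM at 0.3 µM in NCI-H1650, NCI-H520, Hs 936.T and A375, the order used for 4 values throughout, and 285, 1052, 538 and 628 CPM at 3 µM. Every treated library lay above both DMSO libraries of its line, and the log2 change was 1.57 ± 0.12 (SE) at 0.3 µM and 1.75 ± 0.12 at 3 µM. NDUFA7, an accessory subunit (chromosome 19, coding region 8311505 to 8321358), had 21.4, 134 and 214 CPM in the DMSO libraries. It reached 159.8, 580.2, 388 and 322 CPM at 0.3 µM and 89.9, 552, 451 and 361 CPM at 3 µM. Its log2 changes were 1.49 ± 0.12 and 1.52 ± 0.13, again with no overlap in any line.

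Among the other risers of complex I were NDUFAB1, the mitochondrial acyl carrier protein, with 1.37 ± 0.09 at 0.3 µM and 1.17 ± 0.10 at 3 µM, and NDUFB1, with 1.004 ± 0.13 and 1.495 ± 0.13. NDUFV2 and NDUFV1, neighbours in the module that oxidises NADH, rose by 1.05 ± 0.11 and 0.79 ± 0.10 at 0.3 µM and by 1.28 ± 0.12 and 1.22 ± 0.10 at 3 µM. NDUFV1 had 179, 203 and 299 CPM in the DMSO libraries, 336, 556, 308 and 362 CPM at 0.3 µM and 435, 717, 401 and 531 CPM at 3 µM, above DMSO in each line. NDUFB4, an accessory subunit of the membrane arm, had 343, 569.5 and 770.1 CPM in the DMSO libraries, 766, 1691, 1051 and 725 CPM at 0.3 µM and 659, 1979, 1366 and 647 CPM at 3 µM. It rose by 0.88 ± 0.10 and 1.002 ± 0.10, again above DMSO in each line. NDUFS1, the large iron-sulfur subunit of the NADH module, fell at both doses instead, by -0.46 ± 0.12 and -0.44 ± 0.13 on the log2 scale. The call was lost at 0.3 µM without Hs 936.T (-0.26), and at 3 µM without Hs 936.T (-0.19), without its 3 µM library (-0.26), without NCI-H1650 (-0.26) and after thinning (-0.31). The treated libraries lay below both DMSO libraries in 4 lines at 0.3 µM and in 3 lines at 3 µM. Per codon, NDUFV1 stood at 0.54 to 1.81 times NDUFS1 in the 8 DMSO libraries, at 1.49 to 3.297 times at 0.3 µM and at 2.12 to 5.18 times at 3 µM. Within every line both treated ratios exceeded both DMSO ratios. The ratio of NDUFV1 to NDUFV2, which both rose, was 0.26 to 0.51 under DMSO, 0.21 to 0.44 at 0.3 µM and 0.27 to 0.48 at 3 µM. Within every line it lay below both DMSO libraries at 0.3 µM. At 3 µM it lay above both in NCI-H1650 and A375 and below both in NCI-H520 and Hs 936.T.

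The largest falls of complex I were in NDUFC2 and NDUFA12. NDUFC2, an accessory subunit of the membrane arm (chromosome 11, coding region 78069873 to 78079744), had 193, 289 and 538 CPM in the DMSO libraries. It had 93.7, 181, 92.5 and 157 CPM at 0.3 µM and 74.9, 169, 65.4 and 83.7 CPM at 3 µM, below both DMSO libraries in each line. The log2 change was -1.28 ± 0.13 and -1.76 ± 0.15. The readthrough symbol NDUFC2-KCTD14, with -1.25 ± 0.14 and -1.66 ± 0.16, shares its reads with NDUFC2 and is no separate observation; without it 10 of 53 members fell at 0.3 µM and 9 at 3 µM. NDUFA12, an accessory subunit (chromosome 12), had 203, 238 and 399.5 CPM in the DMSO libraries, 60.6, 156, 138 and 116 CPM at 0.3 µM and 74.9, 161, 59.1 and 61.2 CPM at 3 µM. It fell by -1.09 ± 0.14 and -1.66 ± 0.17, below both DMSO libraries in each line. NDUFA11 fell by -0.38 ± 0.12 and -0.85 ± 0.13. The call at 0.3 µM was lost in 6 of 23 alternative settings: without NCI-H1650 (-0.20), without its 0.3 µM library (-0.18), without Hs 936.T (-0.29), without the libraries labelled NCI-H521 (-0.27), after thinning (-0.32) and with the longest matched entry (-0.27). NDUFB10 was called at 0.3 µM (-0.27 ± 0.12, adjusted p = 0.045 in edgeR's quasi-likelihood test) but in only 3 of 23 alternative settings.

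Complex II, whose 4 subunits were all named, split within the enzyme. SDHA, the flavoprotein that oxidises succinate (chromosome 5, coding region 218356 to 256420), had 179, 291 and 433 CPM in the DMSO libraries, 1108, 634, 897.7 and 496 CPM at 0.3 µM and 1004, 463, 650.5 and 467 CPM at 3 µM. It rose by 1.42 ± 0.09 and 1.12 ± 0.10, with no overlap in any line. SDHD, one of the pair of membrane anchors (chromosome 11, coding region 112086908 to 112119292), had 142, 265 and 407 CPM in the DMSO libraries, 116, 82.3, 68.9 and 69.6 CPM at 0.3 µM and 135, 96.7, 87.1 and 64.4 CPM at 3 µM. It fell by -1.56 ± 0.16 and -1.46 ± 0.18, below both DMSO libraries in each line. SDHB, the iron-sulfur subunit with the TISU core printed above, rose by 0.63 ± 0.11 and 0.77 ± 0.11, and had 162, 364 and 566 CPM in the DMSO libraries against 347, 749, 569.9 and 579.7 CPM at 0.3 µM and 405, 987, 697 and 477 CPM at 3 µM. It lay above DMSO in each line. SDHC, the other anchor, had 300.3, 409 and 581 CPM in the DMSO libraries, 386, 309, 649 and 568 CPM at 0.3 µM and 419.7, 423, 607 and 479.8 CPM at 3 µM. It gave 0.16 ± 0.10 and 0.18 ± 0.11 and was not called at either dose (adjusted p = 0.17 at both, edgeR quasi-likelihood test).

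Expressed per codon, SDHA stood at 0.12 to 0.55 times SDHD in the 8 DMSO libraries. The ratio was 2.19, 1.76, 2.98 and 1.63 at 0.3 µM and 1.70, 1.10, 1.71 and 1.66 at 3 µM, so the order of the 2 messages was inverted in all 8 treated libraries. SDHC stood at 0.74 to 3.502 times SDHD under DMSO and at 2.92 to 8.83 times with RocA, above the DMSO libraries within each line. SDHA against SDHB moved less, from 0.16 to 1.06 times under DMSO to 0.35 to 1.32 times at 0.3 µM and 0.19 to 1.03 times at 3 µM. Within each line that ratio lay above both DMSO libraries at 0.3 µM, and at 3 µM in NCI-H520 and A375 only.

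**Figure D4:**
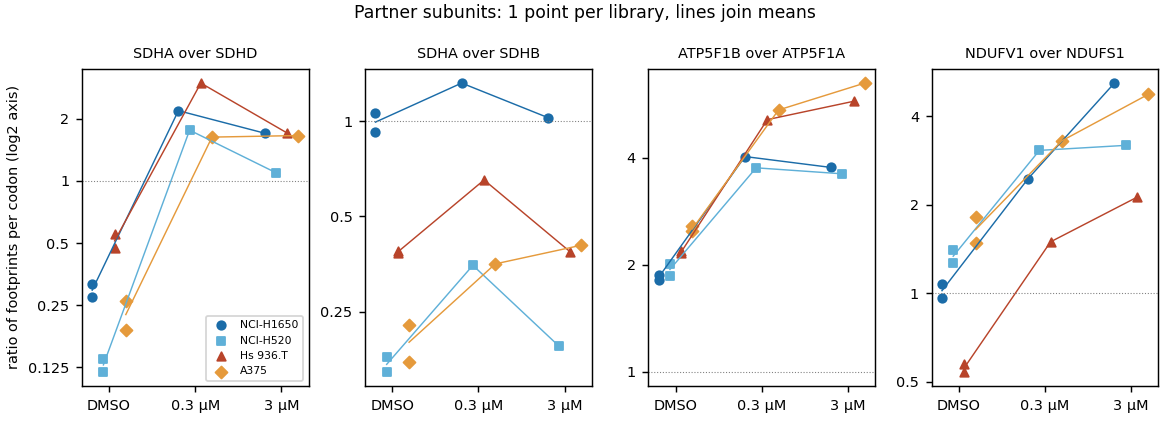
Ratio of footprints per codon (log2 axis) for 4 pairs of partner subunits under DMSO, 0.3 µM and 3 µM RocA, 1 point per library and lines joining the means of each cell line. Not drawn are SDHC over SDHD, NDUFV1 over NDUFV2, UQCRC1 over UQCRC2 and COX4I1 over COX5A. SDHA over SDHD crosses 1 in every line, from 0.55 or less under DMSO to 1.10 or more with RocA.

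Complex III was represented by 3 subunits that differed from one another. UQCRB, a small subunit at the ubiquinone site (chromosome 8, coding region 96231055 to 96235530), had 472, 641 and 909 CPM in the DMSO libraries, 1289.6, 2296, 1519.7 and 1226 CPM at 0.3 µM and 1094, 3353, 2365 and 1243 CPM at 3 µM. It rose by 1.26 ± 0.10 and 1.56 ± 0.10 with no overlap in any line. UQCRC1, a core subunit with the TISU core, had 377, 414 and 773 CPM in the DMSO libraries. It had 612, 576, 1286 and 675 CPM at 0.3 µM, above DMSO in each line, and 435, 423, 694 and 441 CPM at 3 µM. It rose at 0.3 µM by 0.66 ± 0.09 and stood at 0.01 ± 0.10 at 3 µM (adjusted p = 0.94, edgeR quasi-likelihood test). UQCRC2, its partner core subunit, had 268, 701 and 999 CPM with DMSO, 810.2, 613, 832 and 342 CPM at 0.3 µM and 989, 552, 691 and 309 CPM at 3 µM. It was not called, at 0.06 ± 0.10 and -0.04 ± 0.11. Per codon, UQCRC1 stood at 0.36 to 1.54 times UQCRC2 under DMSO, 0.71 to 1.86 times at 0.3 µM and 0.41 to 1.35 times at 3 µM. Within each line that ratio lay above both DMSO libraries at 0.3 µM. At 3 µM it lay above both in the lung lines and below both in the melanoma lines.

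In complex IV the 4 tested members all rose at 0.3 µM. COX4I1, the largest nuclear-encoded subunit (chromosome 16, coding region 85801206 to 85806874), had 696, 1035 and 2263 CPM with DMSO, 1345, 4033, 1727 and 1533 CPM at 0.3 µM and 1184, 4550.0, 1948 and 1388 CPM at 3 µM. It rose by 0.78 ± 0.09 and 0.80 ± 0.09, above both DMSO libraries in each line. COX5A, a subunit on the matrix side, had 339, 546 and 832 CPM with DMSO, 909, 1510.2, 1543 and 922 CPM at 0.3 µM and 629, 1286, 1366 and 728 CPM at 3 µM. It rose by 1.12 ± 0.09 and 0.82 ± 0.10. Per codon, COX4I1 stood at 1.24 to 3.11 times COX5A under DMSO, 0.99 to 2.35 times at 0.3 µM and 1.26 to 3.12 times at 3 µM. Within each line that ratio lay below both DMSO libraries at 0.3 µM, with no shared direction at 3 µM. COX7A2, a small membrane subunit, had 331, 551 and 834 CPM with DMSO, 893, 1708, 1539.9 and 1368 CPM at 0.3 µM and 509.6, 1947, 2132 and 1256 CPM at 3 µM. It rose by 1.31 ± 0.10 and 1.36 ± 0.11, again without overlap. COX7A2L, which takes part in joining complexes III and IV into supercomplexes, rose at 0.3 µM by 0.50 ± 0.13 and was not called at 3 µM (0.30 ± 0.14). The counted entry of COX7A2 is a longer isoform, as are those of NDUFB1, ATP5PF and ATP5MC2.

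In complex V the alpha and beta subunits of the catalytic head changed by different amounts. ATP5F1B, the catalytic beta subunit (chromosome 12, coding region 56638323 to 56645963), was the most read member in CPM, with 1801, 2231 and 2709.7 CPM under DMSO. It had 4635, 5592, 6262 and 5550.5 CPM at 0.3 µM and 3717, 4643, 5222 and 4321 CPM at 3 µM. It rose by 1.305 ± 0.077 and 1.001 ± 0.079, and the 4 lines lay within 1.19 to 1.43 at 0.3 µM. ATP5F1A, the alpha subunit that alternates with it in the head (chromosome 18, coding region 46084282 to 46099340), had 850.4, 1157 and 1333 CPM with DMSO, 1201, 1559.5, 1278 and 1064 CPM at 0.3 µM and 1034, 1346, 946 and 695 CPM at 3 µM. It was not called at either dose, with 0.19 ± 0.09 and -0.19 ± 0.10 (adjusted p = 0.062 and 0.098, edgeR quasi-likelihood test). At 0.3 µM it was called higher in 16 of 23 alternative settings (log2 change 0.05 to 0.35 over all of them). At 3 µM it was called lower in 2 of 23 (-0.30 to -0.05). The beta to alpha ratio per codon was 1.81 to 2.57 in the DMSO libraries, 4.04, 3.75, 5.13 and 5.46 at 0.3 µM and 3.76, 3.61, 5.77 and 6.5 at 3 µM. All 8 treated libraries exceeded all 8 DMSO libraries in it.

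Other ATP synthase members moved either way. ATP5MF, a small membrane subunit, had 363, 454 and 732 CPM with DMSO, 1146, 1058, 1234 and 1127 CPM at 0.3 µM and 1289, 1350.1, 1874 and 1001 CPM at 3 µM, and rose by 1.202 ± 0.10 and 1.45 ± 0.11. ATP5MC1, a gene for the ring subunit c (chromosome 17, coding region 48893418 to 48895769), had 206, 291 and 716 CPM with DMSO, 105, 160.5, 323 and 191 CPM at 0.3 µM and 60, 117, 212 and 116 CPM at 3 µM. It fell by -0.95 ± 0.13 and -1.55 ± 0.15, below both DMSO libraries in each line. ATP5MC2, another gene for the same subunit, rose at 0.3 µM (0.32 ± 0.10) and was not called at 3 µM (0.13 ± 0.11). The call was lost in 4 of 23 alternative settings: with library totals (0.18), without NCI-H520 (0.20), without its 0.3 µM library (0.23) and without A375 (0.25). ATP5PF, a stalk subunit, had 233, 295 and 698 CPM with DMSO, 198, 230.4, 496 and 217 CPM at 0.3 µM and 194.8, 347, 709.6 and 274 CPM at 3 µM. It fell at 0.3 µM, where it lay below DMSO in each line, by -0.40 ± 0.12 and stood at 0.06 ± 0.12 at 3 µM. The call was lost in 4 of 23 alternative settings: without NCI-H1650 (-0.27), without its 0.3 µM library (-0.28), without Hs 936.T (-0.27) and with the longest matched entry (-0.22). ATP5MPL, a small membrane subunit, had 148, 207 and 285 CPM with DMSO, 138, 255, 239 and 168 CPM at 0.3 µM and 119.9, 229.7, 193 and 103 CPM at 3 µM, and lay below DMSO in 3 lines at 3 µM. It was called lower at 3 µM only (-0.41 ± 0.15), in 15 of 23 alternative settings. ATP5IF1, the inhibitor of the synthase, rose by 0.44 ± 0.12 and 0.69 ± 0.12, and ATP5PO, a stalk subunit, by 0.51 ± 0.10 and 0.50 ± 0.11. ATP5S, whose product is not a subunit of the enzyme despite its symbol, was not called.

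Assembly factors were read far less, so their values rest on few counts. NDUFAF5 and NDUFAF6, needed for early steps of complex I assembly, rose by 1.05 ± 0.25 and 1.16 ± 0.25 at 0.3 µM and by 1.21 ± 0.27 and 1.06 ± 0.30 at 3 µM. NDUFAF5 had 9.36, 22.8 and 30.4 CPM with DMSO and 22, 74.1, 40.3 and 43.5 CPM at 0.3 µM, and 30, 56.4, 68.5 and 41.9 CPM at 3 µM. NDUFAF6 had 14.2, 21.1 and 46.9 CPM with DMSO and 60.6, 57.6, 50.4 and 34.8 CPM at 0.3 µM, and 45, 48.4, 34.2 and 61.2 CPM at 3 µM. Its rise at 3 µM was not called without the A375 library at that dose (0.68 ± 0.36). SDHAF2, which helps to put the flavin on SDHA, rose by 1.02 ± 0.15 and 1.08 ± 0.16. COX17, a copper chaperone for complex IV (chromosome 3, coding region 119675149 to 119677310), had 66.9, 98.9 and 138 CPM with DMSO, 99.2, 177, 173 and 281 CPM at 0.3 µM and 165, 371, 395 and 338 CPM at 3 µM. It rose by 0.83 ± 0.15 and 1.68 ± 0.14, above both DMSO libraries in each line at both doses.

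Among the assembly factors that fell, COX14, which takes part in making the COX1 subunit, had 30.4, 43.2 and 49.5 CPM with DMSO, 38.6, 16.5, 37 and 17.4 CPM at 0.3 µM and 30, 16.1, 24.9 and 22.5 CPM at 3 µM. It fell by -0.56 ± 0.24 and -0.88 ± 0.30, called in 5 of 23 and 19 of 23 alternative settings. COX10, which makes heme for complex IV, had 13.1, 21.5 and 32.6 CPM with DMSO, 27.6, 4.11, 10.1 and 17.4 CPM at 0.3 µM and 0, 16.1, 9.34 and 0 CPM at 3 µM. Its fall was called at 3 µM (-1.58 ± 0.52) and not without the A375 library at that dose (-0.71 ± 0.55). NDUFAF7, a methyltransferase that acts on a complex I subunit, had 25.4, 36.5 and 58 CPM with DMSO, 11, 32.9, 13.4 and 43.5 CPM at 0.3 µM and 15, 64.5, 28 and 80.5 CPM at 3 µM. It was called lower at 0.3 µM (-0.65 ± 0.26), in 13 of 23 alternative settings, and stood at 0.38 ± 0.24 at 3 µM, where it was not called. COX11, COX18, NDUFAF1 and UQCC1 were not called at either dose.

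A direct comparison of the doses called 5 members. COX17 lay higher at 3 µM than at 0.3 µM by 0.85 ± 0.17 on the log2 scale and NDUFV1 by 0.43 ± 0.13, a direction called in 1.12% of all genes. Another 3 lay lower, where 2.25% of all genes did: UQCRC1 by -0.65 ± 0.12, ATP5MC1 by -0.60 ± 0.18 and ATP5F1A by -0.38 ± 0.11. COX17 went from a range of 0.43 to 1.18 over the lines at 0.3 µM to 1.15 to 2.08 at 3 µM, and UQCRC1 from 0.49 to 0.75 to a range of -0.14 to 0.20. COX17 and UQCRC1 were called in 26 of 27 alternative settings, ATP5F1A in 15, NDUFV1 in 9 and ATP5MC1 in 5. Without Hs 936.T no member was called, and over all genes 15 of 6318 were, in place of 228 of 6759. COX17 then stood at 0.64 (adjusted p = 0.14) and UQCRC1 at -0.57 (adjusted p = 0.067, edgeR quasi-likelihood test).

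No member was called for a response that differed between lines (edgeR quasi-likelihood F test over 4 lines), where 3.39% of all genes were called. An unadjusted p under 0.05 was found for 8 of 54 members, beside 1003 of 6759 genes. The model gives each line a response shared by both doses. In simulated data with differences planted in A375, this test recovered 19.8% of 2-fold and 59.6% of 4-fold differences. The lack of calls therefore does not show that the lines responded alike. The smallest p belonged to SDHD (F = 4.19, adjusted p = 0.14, edgeR), whose log2 change at 0.3 µM was -2.23 in NCI-H520, -1.49 in NCI-H1650, -1.45 in A375 and -1.12 in Hs 936.T. SDHD was called with library totals in place of TMM (adjusted p = 0.041, edgeR). NDUFS8 (adjusted p = 0.19) was called after thinning (adjusted p = 0.046) and without the libraries labelled NCI-H521 (adjusted p = 0.042, edgeR in each case). At 3 µM the log2 change of NDUFS8 was 0.63 in NCI-H1650 and 1.89, 2.18 and 1.57 in the other lines.

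Under DMSO the subunits were read well above the typical gene. On the per-length scale (CPM per codon counted) the median over members was 1.25 in A375, 1.36 in NCI-H1650, 1.64 in Hs 936.T and 1.77 in NCI-H520, and the median over the 8062 genes tested lay between 0.0589 and 0.0623. Complex IV had the highest median of the classes in each line, from 2.55 in NCI-H1650 to 5.85 in Hs 936.T, and assembly factors the lowest, from 0.0925 to 0.192. By the mean of the 4 lines, the most read member per codon was COX4I1 in complex IV, UQCRB in complex III, ATP5MF in complex V, NDUFB4 in complex I, SDHC in complex II and COX17 among the assembly factors. UQCRB and COX17 led their class in each of the 4 lines. Elsewhere the leader differed in some lines: COX7A2 (7.82) lay above COX4I1 (7.27) in Hs 936.T, ATP5IF1 (5.41) above ATP5MF (4.94) in NCI-H520 and NDUFA13 (5.79) above NDUFB4 (2.99) in A375. SDHD lay above SDHC in both lung lines, with 2.20 beside 2.14 in NCI-H1650 and 2.63 beside 2.01 in NCI-H520. COX4I1 stood at 13.9 ± 0.39 in NCI-H520, 7.27 ± 0.14 in Hs 936.T, 5.67 ± 0.14 in A375 and 4.36 ± 0.01 in NCI-H1650 (CPM per codon, SD, n = 2), each step in that order being larger than the SDs. SDHA was the least read subunit of complex II in 3 lines and stood at 0.65 ± 0.02 beside 0.66 ± 0.08 for SDHB in NCI-H1650, where the pair overlapped.

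**Figure D5:**
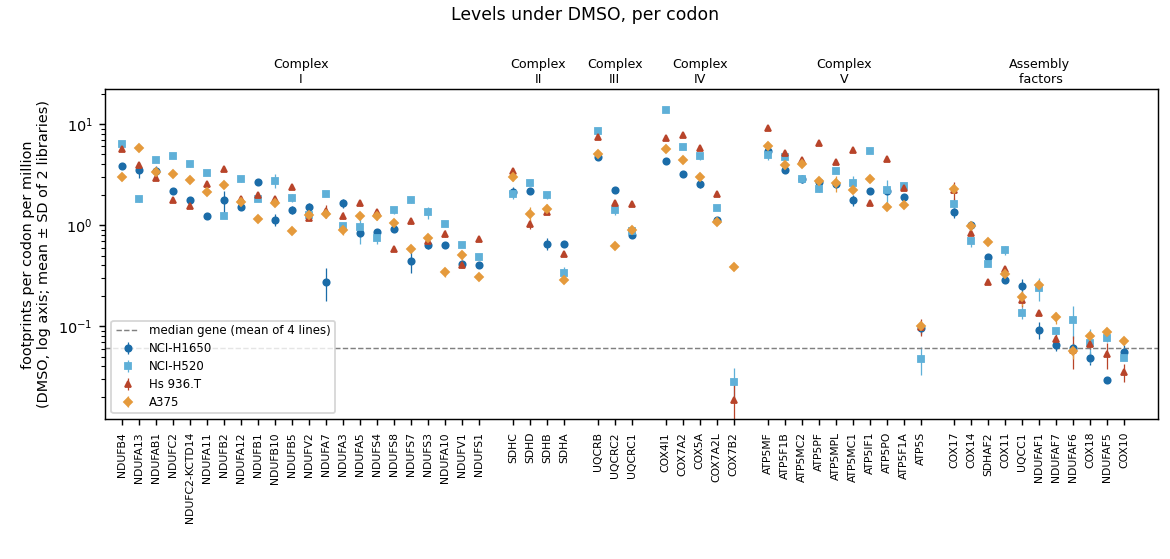
CPM per codon counted under DMSO (log axis, mean ± SD of 2 libraries) for each member, by complex, in the 4 lines; the dashed line is the median gene, and the value of 0 for COX7B2 in NCI-H1650 is not drawn. Complex members lie above the dashed line other than COX7B2 in 3 lines and ATP5S in NCI-H520, while COX10, COX18, NDUFAF5 and NDUFAF6 lie below it in at least 1 line, and COX4I1 in NCI-H520 is the highest point at 13.9.

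Lines differed in these levels without a shared direction over all complexes. Between the melanoma lines 25 of 55 members were higher in Hs 936.T than in A375 and 14 lower (32% and 32.7% of all genes), among them 7 of 10 in complex V, 4 of 5 in complex IV and 3 of 3 in complex III on the higher side, and 0 of 11 assembly factors. ATP5PO was higher in Hs 936.T by 1.56 ± 0.09 on the log2 scale, NDUFB5 by 1.45 ± 0.10 and UQCRC2 by 1.40 ± 0.09, and SDHAF2 was lower by -1.32 ± 0.13. COX7B2, a variant of a small complex IV subunit, read 28.2 and 27.4 CPM in A375 against 1.82 and 0.832 CPM in Hs 936.T, and 0 counts in both NCI-H1650 libraries.

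Between the lung lines 11 members were higher in NCI-H1650 than in NCI-H520 and 27 lower (29.3% and 29.5% of all genes). NDUFA7 was lower in NCI-H1650 by -2.75 ± 0.22, with 36.0 and 21.4 CPM against 214 and 204 CPM, and NDUFS7, an iron-sulfur subunit, by -1.90 ± 0.15. COX4I1 was lower by -1.57 ± 0.09 and SDHB by -1.49 ± 0.12, while SDHA was higher by 1.04 ± 0.12. Without NCI-H1650 DMSO replicate 2 the members called higher numbered 6. Scaling by library totals moved the median of all genes in this comparison from 0 to 0.18, and 16 members were then higher and 21 lower. Of 8062 genes 2756 were then higher and 1993 lower, in place of 2363 and 2380. Lung against melanoma lines gave 19 members higher in lung and 21 lower (28.5% and 31.8% of all genes). With library totals these were 23 and 16, and over all genes 2611 and 2217 in place of 2300 and 2564. In the main fit of lung against melanoma lines SDHD was higher by 1.06 ± 0.08 and NDUFB2 lower by -1.03 ± 0.09. With 2 lines a side, that test measures the spread between libraries and not between lines of a tissue.

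Other mitochondrial genes were counted from lists set by pathway. Over all genes tested, 24.3% rose and 36.1% fell at 0.3 µM, and 22.4% rose and 34.2% fell at 3 µM. At 0.3 µM 12 of 21 genes of the tricarboxylic acid cycle and pyruvate oxidation rose and 3 fell (57.1% and 14.3%, median log2 change 0.62). At 3 µM 9 rose and 3 fell (42.9% and 14.3%, median 0.22). DLD, the lipoamide dehydrogenase of the pyruvate and oxoglutarate complexes, fell by -1.91 ± 0.18 and -1.87 ± 0.21. Of 28 other genes of the respiratory chain that the symbol rule leaves out, 6 rose and 9 fell at 0.3 µM (median -0.20). These are 21.4% and 32.1%, near the shares of all genes. At 3 µM 4 rose and 9 fell (14.3% and 32.1%, median -0.10). In that list DMAC2, an assembly factor of complex I, rose by 1.55 ± 0.14 at 0.3 µM, and ETFDH, which feeds electrons from fatty acid oxidation to ubiquinone, fell by -1.90 ± 0.42. NUBPL, an iron-sulfur carrier for complex I, rose by 1.53 ± 0.30 at 3 µM and GPD2, the mitochondrial glycerol phosphate dehydrogenase, fell by -1.56 ± 0.19.

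Mitochondrial import and processing genes numbered 11 higher and 8 lower of 26 at each dose (42.3% and 30.8%, medians 0.07 and 0.24). The lower share is near that of all genes. The protease LONP1 rose by 1.37 ± 0.10 at 0.3 µM and TOMM7, a small part of the outer membrane translocase, by 1.46 ± 0.13 at 3 µM. The protease YME1L1 fell by -1.87 ± 0.16 at 0.3 µM and PHB, a prohibitin, by -1.93 ± 0.15 at 3 µM. Among 18 regulators of biogenesis and of mitochondrial gene expression 9 rose and 6 fell at 0.3 µM (50% and 33.3%, median 0.41). At 3 µM 8 rose and 6 fell (44.4% and 33.3%, median 0.35). The share that fell is again near that of all genes. C1QBP, a mitochondrial matrix protein, rose by 1.57 ± 0.08 at 0.3 µM and MTERF4, which acts on the mitochondrial ribosome, by 1.85 ± 0.21 at 3 µM. MTIF2, the mitochondrial translation initiation factor, fell by -2.18 ± 0.29 and -2.65 ± 0.37.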

How the data were processed

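Ribosome footprints were counted in 16 libraries. The submitters' processing notes list CASAVA 1.8, Bowtie2 2.1.0, TopHat2 2.0.9 and the hg38 build. The transcript annotation was not given in the sources used here. Per transcript entry the authors deposited the number of codons counted (coding codons less 10) and the raw footprint count. Of 182398 entries 88482 have no coding length and hold no counts, and entries of the same gene repeat its reads.

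Names came from matching coding lengths of neighbouring entries to GENCODE 29 (minimum natural-log score 14, minimum odds 100), which left 10930 of 20418 coding genes once 216 with contested entries were removed. Of adjacent named pairs 99.6% stood in ascending genome position, a property the matching did not use. Members closest to the minimum score were NDUFC2 and UQCRC1 (14.4 each) and SDHB (14.6).

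Counts were tested with edgeR 4.0.16 in R 4.3.3 (TMM, filterByExpr with minimum count 10, robust quasi-likelihood tests, 2-sided, Benjamini-Hochberg over all genes), after a check on simulated data. Dose fits used all 16 libraries with cell line as a term, and line fits the 8 DMSO libraries. The SE of an edgeR log2 change is its absolute value divided by the square root of the quasi-likelihood F statistic. In the dose fits the residual spread behind it covers pairs of DMSO libraries as well as differences between lines. DESeq2 1.42.0, other scalings, no low-count filter, the longest entry, thinning and left-out libraries were alternatives. CPM values, marker sums and levels per codon use TMM-adjusted library totals on the genes tested with treatment, while footprint shares use plain totals on named genes. Changes per line are log2 CPM with a prior count of 2. The variance between DMSO replicates of a line was 1.41 to 2.42 times the counting variance (chi-square per degree of freedom).

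Values in every library are given by rule: per class and dose the 2 largest rises and falls among called members of at least 10 CPM on average, all members of a class with 3 or fewer tested, those called between doses, and the most read per codon in each class. The readthrough NDUFC2-KCTD14 was left out of these, and NDUFA12 was added after its values were seen. Members, lists and rules were chosen with earlier results of these data known. The largest rise in 1 of the pathway lists and 1 of the long purine runs are not reported here.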

Additional observations from a re-analysis of the deposited data

Results flagged for a closer look

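In 8 of 108 sets of 4 lines (54 members at 2 doses) the change in 1 line stood far from the other 3. Chance gives about 1 in 20 where lines have equal spread and sets are independent. Here depth differs between lines and the doses share DMSO libraries, so that rate is only a rough guide. In NCI-H1650 at 3 µM, NDUFS7 changed by -2.42 on the log2 scale, on a count of 1, beside 0.13 to 0.52 in the other lines, NDUFAF1 by -4.01, with 0 counts and so set by the prior count, beside -0.12 to 0.19, and ATP5IF1 by -0.0080 beside 0.68 to 0.80. At 0.3 µM NDUFA11 changed by -1.04 in NCI-H1650, on a count of 14, beside -0.33 to -0.25 in the others. NDUFB10 changed by -0.11 there, on a count of 31, beside -0.31 to -0.28. COX7A2L changed by 0.85 in A375 beside 0.34 to 0.43, and ATP5MC1 by -0.54 in A375 beside -1.11 to -1.03. SDHA changed by 1.52 in NCI-H520 beside 1.38 to 1.40, and its DMSO libraries in NCI-H520 read 198 and 245 CPM. NCI-H1650 holds the shallowest library, with 56487 footprints on named genes at 3 µM; the part of depth in these values was not tested.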

How the results depend on the processing

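Of 42 members called at 0.3 µM, 33 kept their call under every alternative run, as did 31 of 36 at 3 µM, and no called member changed sign. Members called lower at 0.3 µM were 11 of 54 in the main fit and 7 of 51 after thinning. They were 7 of 54 without the libraries labelled NCI-H521. Among the 38 tested members with a naming score of at least 20 (chosen after seeing the data) they were 7. At 3 µM they were 10 of 54, 6 of 51 after thinning and 6 of those 38. Falls over all genes at 0.3 µM were 2441 of 6759, 1471 of 5282 after thinning and 2203 of 6986 without the libraries labelled NCI-H521. At 3 µM they were 2311 of 6759, and 1553 of 5282 after thinning. Leaving out a line or library gave 29 to 36 higher and 6 to 9 lower at 0.3 µM (6 without NCI-H1650, without its 0.3 µM library, or without Hs 936.T) and 25 to 33 higher and 7 to 11 lower at 3 µM. The falls over all genes at 0.3 µM were then 1957 of 6489 without NCI-H1650 and 1946 of 6318 without Hs 936.T. At 3 µM they were 1924 of 6489 and 1809 of 6318 in the same order. Between doses, 5 members called became 2 after thinning, 3 without the libraries labelled NCI-H521 and 3 with the longest matched entry, and 0 to 6 with a line or library left out (0 without Hs 936.T). Over all genes 228 of 6759 were called between doses. That count became 187 of 5282 after thinning and 110 of 6986 without the libraries labelled NCI-H521. It was 206 of 6690 with the longest matched entry and 15 of 6318 without Hs 936.T. For the difference between lines 1 member in place of 0 was called with library totals, after thinning, and without the libraries labelled NCI-H521, and 0 with any DMSO library left out. The genes called in the first 3 of these settings were 239 of 6759, 140 of 5282 and 212 of 6986, in place of 229 of 6759. Under DMSO, leaving out a library gave 13 to 20 higher and 18 to 22 lower for lung against melanoma, 6 to 12 and 24 to 28 for NCI-H1650 against NCI-H520, and 23 to 27 and 11 to 15 for Hs 936.T against A375. The share ratio ranged from 1.49 to 1.54 at 0.3 µM and from 1.46 to 1.499 at 3 µM with a line left out. Library totals in place of TMM moved the median of all genes from -0.18 to -0.32 at 0.3 µM and from -0.24 to -0.34 at 3 µM, and that of the members from 0.51 to 0.37 and from 0.46 to 0.37. It moved that of all genes from -0.01 to -0.12 for Hs 936.T against A375. The causes of these differences were not tested. The DMSO replicate numbers share only a number (correlations of deviations -0.03 to 0.08), and a replicate block over them gave 19 higher and 21 lower, 11 and 28, and 26 and 14 in the 3 line comparisons. Depth limits the assembly factors most, since 1 count in NCI-H1650 at 3 µM is worth 15 CPM.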
